A study of Mus musculus with 12 samples.

Results

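Keratins are the proteins of the intermediate filaments of epithelial cells. The genes described here are all those whose symbol is Krt followed by a digit, which leaves out the keratin-associated proteins of hair. Of 19938 genes, read by 21789 probe sets that carried exactly 1 gene symbol, 52 met this rule, each with a single probe set measured on all 12 arrays. By known site of expression, 2 are basal, 5 suprabasal, 4 stress, 2 bulge, 2 companion layer or infundibulum, 8 inner root sheath and 13 hair shaft keratins, 5 are those of simple epithelia, 4 of mucosa or cornea, and 7 were left as other.

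Gene expression had been measured on whole-transcript microarrays in mouse dorsal skin cells isolated by flow cytometry, 3 arrays in each of 4 groups, with no treatment of the animals. Clock-positive bulge cells had bright alpha6 integrin, CD34 and bright Venus, and came from mice 18 to 19 days old with the Per1-Venus transgene, in which the fluorescent protein Venus reports activity of the clock gene Per1, with about 20 mice pooled per sample. Clock-negative bulge cells came from the same kind of mice and gate with dim Venus; their labels also name the high-Venus gate, so the grouping follows titles and series design. Basal cells of the interfollicular epidermis (IFE) came from Bmal1 KO mice, with an epidermal knockout of the clock activator Bmal1, and from wild-type (WT) mice, all 1 year old, with 5 mice per sample. No source used here names the promoter or Cre line that drives the reporter or the knockout, or the strain. Nothing says how far the pools of a group were independent, so the p-values measure only the spread between these samples, which may be technical.

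A keratin filament is built from pairs of a type I (acidic) and a type II (basic) keratin, and most sites of the skin use their own pair. Krt5 and Krt14 are the pair of basal keratinocytes, and Krt1 and Krt10 replace them as cells leave the basal layer. Krt6, Krt16 and Krt17 are induced at wounds and are also made in parts of the follicle. Krt15 and Krt19 mark bulge stem cells, Krt25 to Krt28 and Krt71 to Krt74 belong to the inner root sheath that guides the growing hair, and Krt31 to Krt40 with Krt81 to Krt87 harden the hair shaft. In the mouse the type I genes lie together on chromosome 11, apart from the type I keratin Krt18, and the type II genes on chromosome 15; 27 of the 52 genes are on chromosome 11 and 25 on chromosome 15.

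On chromosome 11 a keratin that was higher in clock-positive bulge cells stands next to keratins that were lower, so the sequence in front of them is shown first. In the order of the keratin genes, the inner root sheath genes Krt25, Krt26, Krt27 and Krt28 lie between Krt24, which was higher while those 4 were lower, and Krt10, which did not pass the test. The lines give the last 100 bases before the annotated transcription start of Krt24, of those 4 genes and of the inner root sheath genes Krt71, Krt72 and Krt73 of chromosome 15. They are RefSeq sequences of build GRCm38.p6, 5′ to 3′ on the gene's own strand, with matches to the TATA box motif TATANA in capitals; overlapping matches run together.
Krt24, chr11:99285263-99285362, minus strand: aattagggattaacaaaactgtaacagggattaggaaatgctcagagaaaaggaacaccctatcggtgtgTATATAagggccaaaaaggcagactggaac
Krt25, chr11:99322952-99323051, minus strand: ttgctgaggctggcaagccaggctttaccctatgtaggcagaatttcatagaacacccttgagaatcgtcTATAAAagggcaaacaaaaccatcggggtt
Krt26, chr11:99337966-99338065, minus strand: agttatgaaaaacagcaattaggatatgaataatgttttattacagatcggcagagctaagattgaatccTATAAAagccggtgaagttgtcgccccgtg
Krt27, chr11:99351119-99351218, minus strand: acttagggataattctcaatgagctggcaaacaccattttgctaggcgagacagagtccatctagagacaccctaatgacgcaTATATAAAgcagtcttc
Krt28, chr11:99374904-99375003, minus strand: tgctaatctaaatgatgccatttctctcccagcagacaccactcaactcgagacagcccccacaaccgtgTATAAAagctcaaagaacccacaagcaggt
Krt71, chr15:101743098-101743197, minus strand: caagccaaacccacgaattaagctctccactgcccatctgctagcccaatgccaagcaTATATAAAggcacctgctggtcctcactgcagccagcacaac
Krt72, chr15:101786521-101786620, minus strand: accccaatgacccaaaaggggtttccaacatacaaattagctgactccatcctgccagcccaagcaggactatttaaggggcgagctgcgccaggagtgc
Krt73, chr15:101802361-101802460, minus strand: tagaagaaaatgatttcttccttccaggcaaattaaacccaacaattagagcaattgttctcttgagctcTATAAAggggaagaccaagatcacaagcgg

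In Krt24, Krt25, Krt26, Krt28 and Krt73 the match began 30 bases before the start, so the gene that rose and those that fell carried the motif at the same place. In Krt27 it lay closer to the start and in Krt71 farther from it, while Krt72 had no match in these 100 bases. Promoters of 36 of the 52 keratins were in the RefSeq table. Over the 250 bases before the start and on both strands, TATANA was present in 22 of them (61.1%), against 6944 of all 27025 genes of the table (25.7%). It was found in 7 of 7 inner root sheath and 8 of 9 hair shaft keratins, and in 7 of the other 20. The hexamer CACGTG, the E-box form that the Bmal1 and Clock proteins bind, reads the same on both strands and was present in 3 of 36 keratins (8.3%), against 6.9% of all genes. Those 3 were Krt23, Krt75 and Krt78. The core CTTTGA read by LEF1 and TCF proteins stood in 9 of 36 keratins (25.0%), 5 of them among the 9 hair shaft genes, against 15.8% of all genes. The AP-1 element TGANTCA stood in 1 of 36 (2.8%), in Krt13, against 7.8% of all genes. A match is a description of the letters and not a measured site.

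Values are log2 intensities, with array medians of 6.82 to 7.01 in the bulge set and 7.75 to 7.80 in the IFE set, and the lowest correlation between 2 arrays of a set was 0.978 and 0.984. Reporter and sort were read from genes chosen with earlier results of these data known. Per1 was 0.51 ± 0.07 higher in clock-positive cells (standard error of the fit, SE, with a limma adjusted p = 0.000195). Of the genes of the 2 sorted surface proteins, Cd34 was 1.45 ± 0.06 higher. Itga6, the gene of alpha6 integrin, was at −0.15 ± 0.07 and did not pass the test (limma adjusted p = 0.0766). Its values were 10.51, 10.50 and 10.39 on clock-positive arrays, against 10.65, 10.52 and 10.66 on clock-negative arrays. In the IFE set, Arntl, the gene symbol of Bmal1, had values of 9.85, 9.60 and 9.55 on Bmal1 KO arrays, against 9.27, 9.47 and 9.34 on WT arrays. It was thus not lower in the KO, and whether its probes lie in the deleted part is not known, so it does not check the label. Nr1d1, a direct Bmal1 target, had values of 8.63, 8.39 and 8.44 on Bmal1 KO arrays, against 12.28, 12.52 and 12.60 on WT arrays (limma adjusted p = 1.08e-05). The clock genes Dbp at −1.83 (adjusted p = 0.0663) and Per1 at −0.51 (adjusted p = 0.844) did not pass there, nor did Nr1d1 in the bulge at 0.08 (adjusted p = 0.298), where Dbp was higher at 0.28 (adjusted p = 0.00469).

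The first comparison asks how keratin expression differs between bulge stem cells with a high and a low reading of the clock reporter. In clock-positive cells Krt24 was 3.82-fold and Krt6a 1.86-fold higher, Krt15 and Krt78 were slightly higher, and keratins of the inner root sheath and the hair shaft were lower, by up to 2.00-fold for Krt27. The basal pair Krt5 and Krt14 and the suprabasal pair Krt1 and Krt10 did not pass the test. A gene was called at a Benjamini-Hochberg adjusted p under 0.05 in limma, a linear model fitted across all genes, after the dimmest 30% of genes had been left out; all changes are clock-positive minus clock-negative. Of 52 keratins 37 passed the filter on dim genes, of which 4 were called higher and 18 lower. Over the 13956 genes tested, 45.2% were called higher and 18.3% lower. Without the filter, 5 of 52 keratins were higher and 29 lower, against 31.5% and 27.9% of 19937 genes. The clock-positive values all lay above the clock-negative ones in 6 of the 52 keratins and all below them in 30, against 35.9% and 30.5% of all genes. The median log2 change of the 37 was −0.16, and that of all genes tested was 0.15.

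**Figure D1:**
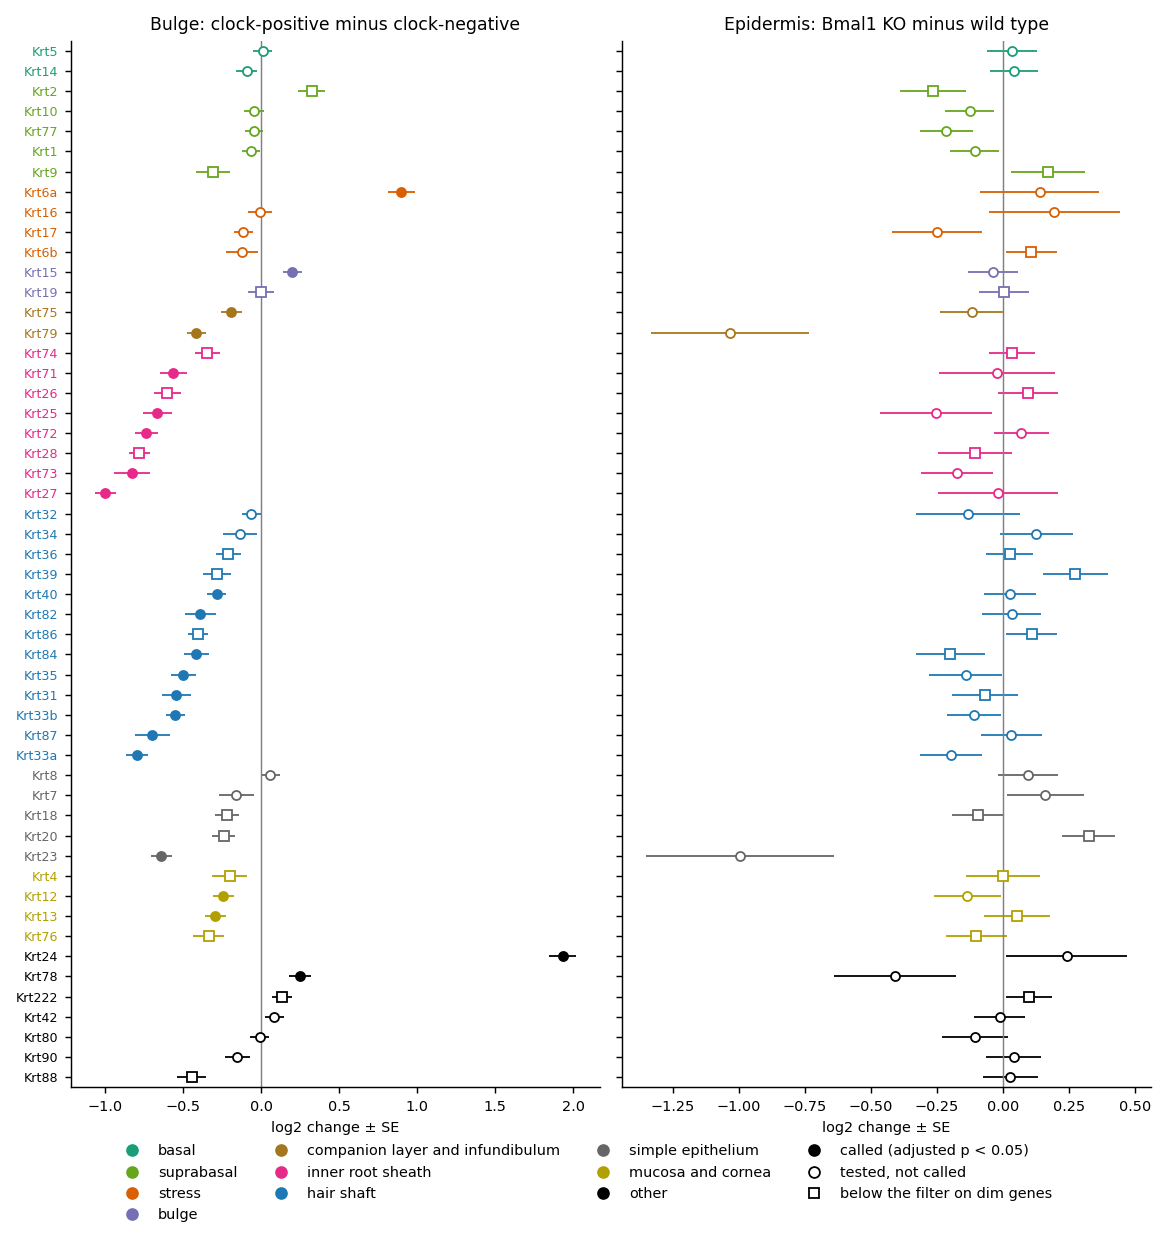
Log2 change with its SE for each of the 52 keratins, by site, in the bulge (left, clock-positive minus clock-negative) and in the IFE (right, Bmal1 KO minus wild type), 3 arrays per group; the panels have different scales. Filled circles passed the adjusted p, open circles did not, and squares lie below the filter on dim genes. In the bulge 4 circles are filled above 0 and 18 below it, and in the IFE none is filled.

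The call depends on how bright a gene is, in keratins as in all genes. All genes were ranked by their mean over the 6 bulge arrays and split into 10 equal parts. The median change of all genes was −0.24 in part 3 from the dim end and 0.20 in the brightest part. Among the genes of part 3, 56.6% were called lower without the filter, against 2.96% in the brightest part. Array SDs were 2.00 to 2.02 on clock-positive arrays and 1.88 to 1.91 on clock-negative arrays, so values were spread more widely on clock-positive arrays. What part this has in a change of a dim keratin was not tested. Each keratin was therefore also set against the genes of its own part. Of 52 keratins, 15 lay below the 5th percentile of their part and 3 above the 95th. The 15 held 7 of the 8 inner root sheath and 5 of the 13 hair shaft keratins, with Krt17, Krt23 and Krt79. The 3 above were Krt24, Krt6a and Krt2.

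**Figure D2:**
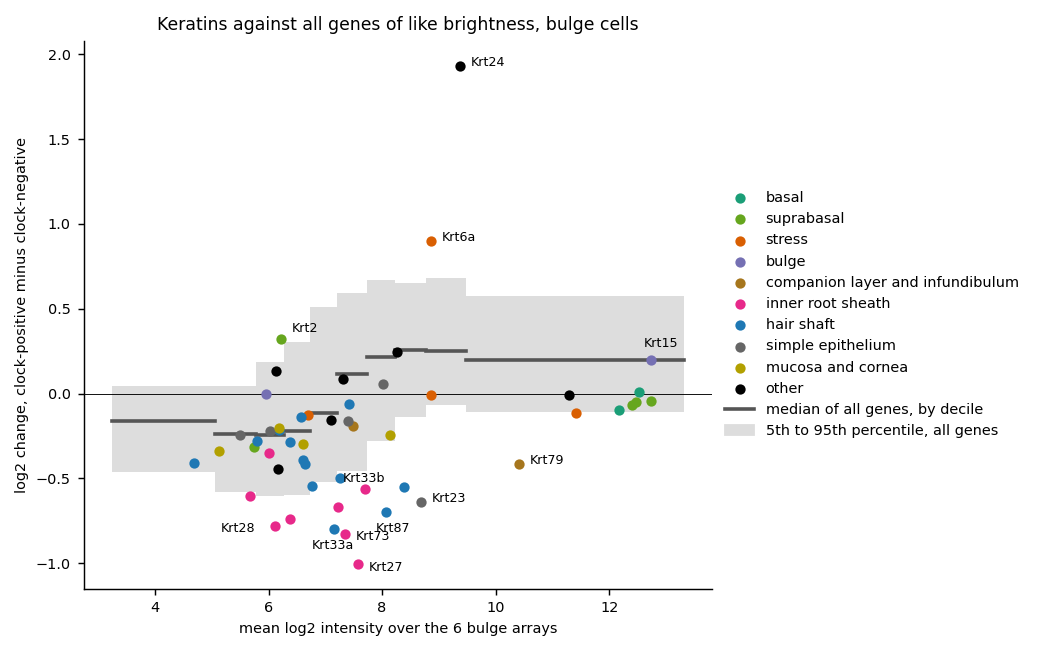
Log2 change of each keratin (points, coloured by site) against its mean log2 intensity over the 6 bulge arrays. Dark lines give the median of all genes in each of 10 equal parts and grey bands the 5th to 95th percentile. Krt24 and Krt6a lie above the band, and 7 of 8 inner root sheath keratins lie below it.

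Of the bulge keratins, Krt15 is a marker of the stem cells themselves. Its values were 12.85, 12.84 and 12.83 on clock-positive arrays, against 12.68, 12.65 and 12.60 on clock-negative arrays. The groups did not overlap and Krt15 was 1.15-fold higher (log2 change 0.20 ± 0.06 SE, adjusted p = 0.0140), which is what the median gene of its brightness did (0.20). Leaving out clock-positive array 1 or clock-negative array 3 lost this call. Krt19 was below the filter, with values of 6.04, 5.99 and 5.83 on clock-positive arrays and 5.85, 6.08 and 5.93 on clock-negative arrays, and the groups overlapped.

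Both basal keratins overlapped between the groups. Krt5, the type II partner, had values of 12.51, 12.56 and 12.51 on clock-positive arrays, against 12.54, 12.55 and 12.47 on clock-negative arrays, and the 95% interval of its log2 change was −0.13 to 0.14. Krt14, the type I partner, had 12.13, 12.16 and 12.06 on clock-positive arrays, against 12.26, 12.25 and 12.13 on clock-negative arrays, with an interval of −0.24 to 0.05. These values, like those of Krt15, Krt10 and Krt77, lie near the highest of any probe set on an array, 13.15 to 13.57. Whether they are compressed there was not tested.

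Of the 5 suprabasal keratins, 3 passed the filter on dim genes in these sorted cells. Krt10 had values of 12.68, 12.75 and 12.68 on clock-positive arrays, against 12.77, 12.81 and 12.67 on clock-negative arrays (interval −0.19 to 0.10). Krt77, a type II keratin of the suprabasal epidermis, had 12.42, 12.46 and 12.44 on clock-positive arrays, against 12.47, 12.54 and 12.46 on clock-negative arrays (interval −0.18 to 0.09). Krt1, the partner of Krt10, changed by −0.07 ± 0.06 without passing the test, although its groups did not overlap. Krt2 and Krt9 were below the filter: Krt2 was higher by 0.32 ± 0.09 and Krt9 changed by −0.31 ± 0.11 when every gene was tested (adjusted p = 0.0101 and 0.0302).

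Among the stress keratins Krt6a stood alone. Krt6a had values of 9.34, 9.31 and 9.29 on clock-positive arrays, against 8.25, 8.38 and 8.62 on clock-negative arrays. Its clock-positive values were close together and all above the clock-negative ones, and the log2 change was 0.90 ± 0.09 (adjusted p = 2.76e-05). Its type I partners did not pass the test. Krt16 had 8.83, 8.91 and 8.84 on clock-positive arrays, against 9.01, 8.73 and 8.86 on clock-negative arrays (interval of the change −0.18 to 0.17). Krt17 had 11.36, 11.37 and 11.33 on clock-positive arrays, against 11.49, 11.41 and 11.51 on clock-negative arrays (interval −0.25 to 0.02), so its groups did not overlap. Krt6b, the near-identical neighbour of Krt6a, changed by −0.12 ± 0.10. Keratins of like sequence can bind each other's probes, and what part this has in any keratin's value was not tested.

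Krt24, a type I keratin that the site groups leave as other, had the largest change of the 52. Its values were 10.38, 10.35 and 10.26 on clock-positive arrays, against 8.56, 8.24 and 8.40 on clock-negative arrays. The lowest clock-positive value lay far above the highest clock-negative one, and the change was 1.93 ± 0.08 (adjusted p = 2.8e-07), above 99.9% of the genes of its brightness. Krt24 and Krt6a were the 2 keratins called higher with a fold of at least 1.5, against 5.12% of all genes tested. Krt78, a type II keratin of stratified epithelia, was 0.25 ± 0.07 higher (adjusted p = 0.0108), with values of 8.42, 8.43 and 8.31 on clock-positive arrays and 8.24, 8.12 and 8.07 on clock-negative arrays. The call of Krt78 was lost under another scaling of the arrays. Krt80, a type II keratin of many epithelia, had 11.28, 11.30 and 11.30 on clock-positive arrays, against 11.35, 11.30 and 11.26 on clock-negative arrays, and did not pass the test.

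**Figure D3:**
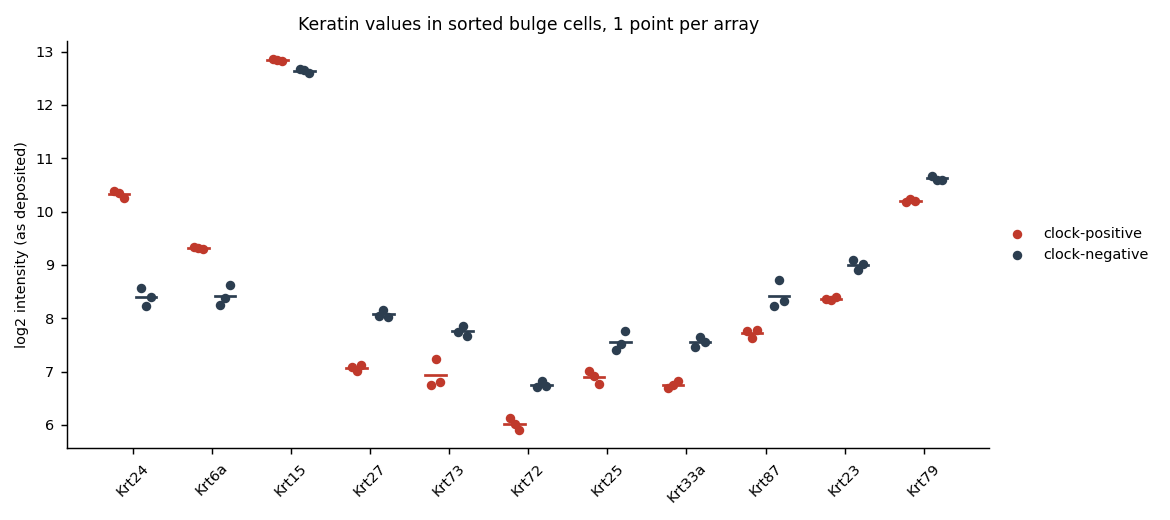
Log2 intensity of 11 keratins on each bulge array (points, with group means as lines), clock-positive left of clock-negative for each gene. No gene shown has overlapping groups: Krt24, Krt6a and Krt15 are higher in clock-positive cells and the other 8 lower.

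The inner root sheath keratins were lower together. All 5 that passed the filter were called lower, against 18.3% of all genes, and without the filter all 8 were, against 27.9%, with log2 changes from −1.0 to −0.35. Krt26, Krt28 and Krt74 lie in the dim parts 2 and 3, where 57.9% and 56.6% of all genes were called lower. In each of the 8 the clock-positive values lay below every clock-negative value. Krt27, a type I keratin of the sheath, had values of 7.09, 7.0 and 7.12 on clock-positive arrays, against 8.03, 8.16 and 8.02 on clock-negative arrays, a change of −1.0 ± 0.07 (adjusted p = 1.98e-06). Krt73, a type II keratin of the sheath cuticle, had 6.75, 7.23 and 6.81 on clock-positive arrays, against 7.75, 7.86 and 7.66 on clock-negative arrays (−0.83 ± 0.11, adjusted p = 0.000246). These are the keratins farthest below the median of their brightness, at −1.11 and −0.94 log2 units from it.

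Krt72, another type II keratin of the sheath cuticle, had values of 6.12, 6.02 and 5.91 on clock-positive arrays, against 6.70, 6.82 and 6.74 on clock-negative arrays (−0.74 ± 0.07). Krt25, a type I keratin whose mutation curls the mouse coat, had 7.01, 6.91 and 6.77 on clock-positive arrays, against 7.41, 7.52 and 7.75 on clock-negative arrays (−0.67 ± 0.09). Krt71, its type II counterpart in curly-coated strains, had 7.42, 7.56 and 7.29 on clock-positive arrays, against 8.12, 7.87 and 7.98 on clock-negative arrays (−0.56 ± 0.09). All of these fell beyond the spread between arrays. Krt28, Krt26 and Krt74 were below the filter, and with every gene tested they changed by −0.78 ± 0.07, −0.60 ± 0.09 and −0.35 ± 0.08. Summed on the linear scale, the 8 sheath keratins reached 726 to 808 on clock-positive arrays, against 1252 to 1287 on clock-negative arrays. In bulk samples like these, fewer cells of a type and less RNA per cell cannot be told apart.

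Hair shaft keratins moved the same way with smaller steps. Of 13 measured, 10 passed the filter and 8 were called lower, against 18.3% of all genes, and without the filter 11 of 13 were, against 27.9%. Krt34, Krt40, Krt82 and Krt84 lie in part 4, where 52.2% of all genes were called lower without the filter. That share was 37.6% in part 5, which holds Krt31 and Krt33a, 56.6% in part 3 (Krt36 and Krt39) and 40.6% in part 1 (Krt86). It was 17.7% in part 6 (Krt32 and Krt35), 6.77% in part 7 (Krt87) and 4.21% in part 8 (Krt33b). Krt33a, a type I keratin of the hair cortex, had values of 6.69, 6.74 and 6.82 on clock-positive arrays, against 7.45, 7.64 and 7.55 on clock-negative arrays (−0.80 ± 0.07, adjusted p = 1.46e-05). Krt87, a type II hair keratin, had 7.76, 7.63 and 7.77 on clock-positive arrays, against 8.22, 8.72 and 8.33 on clock-negative arrays (−0.70 ± 0.11, adjusted p = 0.000586). Krt33b, the close relative of Krt33a, had 8.15, 8.08 and 8.08 on clock-positive arrays, against 8.70, 8.66 and 8.61 on clock-negative arrays (−0.55 ± 0.06). In these 3 genes the groups did not overlap. Krt31 at −0.54 ± 0.09 and Krt35 at −0.50 ± 0.08 were lower too, and Krt84, Krt82 and Krt40 were at −0.42, −0.39 and −0.29. Krt32, of the hair cuticle, and Krt34 overlapped between the groups and changed by −0.06 ± 0.06 and −0.14 ± 0.11. Krt36, Krt39 and Krt86 lay below the filter. Summed, the 13 reached 1442 to 1474 on clock-positive arrays, against 1926 to 2170 on clock-negative arrays.

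The other keratins called lower were spread over the remaining sites. Krt79, which marks cells of the infundibulum and the sebaceous duct, had values of 10.18, 10.24 and 10.20 on clock-positive arrays, against 10.66, 10.60 and 10.60 on clock-negative arrays (−0.42 ± 0.06, adjusted p = 0.000313). The 2.96% of genes called lower in its part of the brightness range are its background. Krt75, of the companion layer, had 7.41, 7.41 and 7.35 on clock-positive arrays, against 7.54, 7.51 and 7.69 on clock-negative arrays (−0.19 ± 0.07, adjusted p = 0.0300). Krt23, a type I keratin of simple and glandular epithelia, had 8.35, 8.34 and 8.40 on clock-positive arrays, against 9.09, 8.90 and 9.01 on clock-negative arrays (−0.64 ± 0.07, adjusted p = 4.45e-05). In all of these the groups did not overlap. Krt8, the type II keratin of simple epithelia, had 8.01, 8.12 and 8.01 on clock-positive arrays, against 7.96, 8.03 and 7.98 on clock-negative arrays, and did not pass the test. Krt12, known from the cornea, had 7.95, 8.07 and 8.01 on clock-positive arrays, against 8.18, 8.25 and 8.34 on clock-negative arrays (−0.24 ± 0.07). Krt13, known from mucosa, had 6.52, 6.38 and 6.47 on clock-positive arrays, against 6.76, 6.83 and 6.66 on clock-negative arrays (−0.29 ± 0.07). Krt12 and Krt13 lost their calls under another scaling of the arrays. With a fold of at least 1.5, 7 keratins were lower (Krt23, Krt25, Krt27, Krt33a, Krt72, Krt73 and Krt87), against 2.11% of all genes tested.

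Under 3 other scalings of the arrays and each omission of an array, Krt24 and Krt6a stayed called higher, and of the 18 lower calls 13 stayed: Krt25, Krt27, Krt71, Krt72, Krt73, Krt31, Krt33a, Krt33b, Krt35, Krt84, Krt87, Krt23 and Krt79. The 5 lost under a scaling were Krt12, Krt13, Krt40, Krt75 and Krt82. A fit of all 12 arrays together ended the calls of Krt23 and Krt79 as well as those of Krt12, Krt75 and Krt78. Centring each array on its median moved the median change of all genes to 0.29, and the split over all genes to 8928 higher and 1355 lower, against 6311 and 2555 as deposited. The keratins then split into 6 higher and 14 lower, against 4 and 18.

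Read along the chromosomes, the lower calls were 10 of 19 tested keratins on chromosome 11 and 8 of 18 on chromosome 15, with 2 higher calls on each. On chromosome 11 Krt24 at 1.93 is followed by Krt25, Krt26, Krt27 and Krt28, at −0.67, −0.60, −1.0 and −0.78. On chromosome 15 Krt6a at 0.90 lies between Krt6b at −0.12 and Krt5 at 0.01, and Krt71, Krt74, Krt72 and Krt73 come next, at −0.56, −0.35, −0.74 and −0.83. Each cluster thus held an inner root sheath block whose members were all lower, beside genes that were not called lower: Krt24, and Krt10 at −0.05, flank the block of chromosome 11, and Krt5 and Krt2 (0.32, below the filter) that of chromosome 15.

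**Figure D4:**
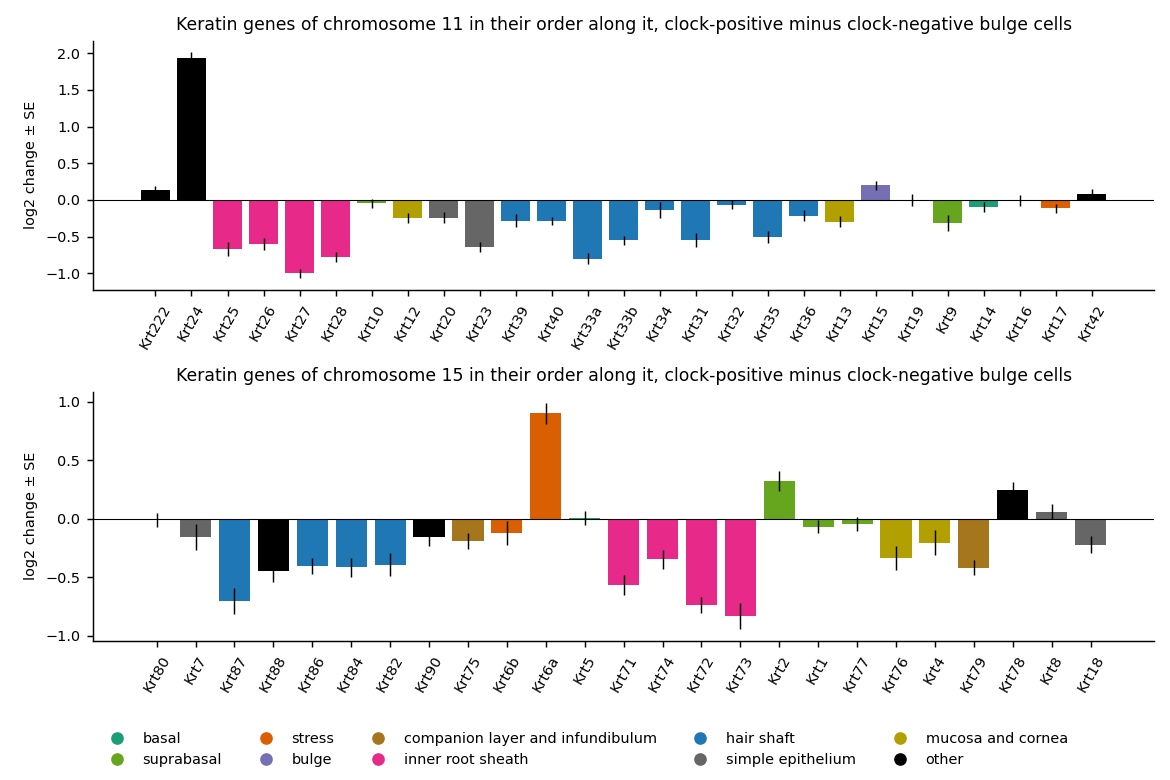
Log2 change with its SE for each keratin in its order along chromosome 11 (top) and chromosome 15 (bottom), clock-positive minus clock-negative, coloured by site; the vertical scales differ. Krt24 (1.93) stands beside the inner root sheath block Krt25 to Krt28, and Krt6a (0.90) beside Krt6b and Krt5.

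Most tested genes listed for the inner root sheath and hair shaft, keratins aside, were lower, as the keratins of these 2 sites were. Over all genes tested, 45.2% were higher and 18.3% lower. Of 5 inner root sheath genes that are not keratins, 4 were lower, among them Cdsn, which joins corneocytes, at −0.98 and Tchh, which embeds the sheath's filaments, at −0.91, while Gata3 (0.02) was not. The list summed to 4349 to 4365 on clock-positive arrays, against 5060 to 5382 on clock-negative arrays. It is not particular to the sheath, since it also summed to 7674 to 9885 on WT arrays of the IFE. On the same WT arrays the 8 sheath keratins summed to 861 to 1067 and the 13 hair shaft keratins to 2173 to 2300. The bulge and IFE sets appear to have been processed apart, so the sizes of these sums are not compared between them. All 3 hair shaft genes that passed the filter, Krtap6-2, Krtap8-1 and Prr9, were lower, and the list of 6 measured summed to 331 to 382 on clock-positive arrays, against 922 to 996 on clock-negative arrays. Markers of other cells moved as well: 7 of 11 of suprabasal epidermis were lower (21688 to 22406 on clock-positive arrays, against 27171 to 27807 on clock-negative arrays), and so were all 8 tested of T cells (1449 to 1518, against 3003 to 3375) and 6 of 8 of Langerhans and other myeloid cells (2070 to 2160, against 2988 to 3284), where 2 were higher. Of 8 bulge stem cell markers 7 were higher (9899 to 9984 on clock-positive arrays, against 5297 to 5639 on clock-negative arrays), and so were all 6 of endothelium (1951 to 1987, against 1305 to 1469). Of 7 tested markers of the upper hair follicle and sebaceous gland, near the site of Krt79, 4 were higher and 1 lower (6957 to 7293 on clock-positive arrays, against 6295 to 6887 on clock-negative arrays). Of 5 tested melanocyte markers 1 was higher and 4 lower, and their sums overlapped. What part any of these cells has in the keratin changes was not tested.

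Partners of the filament moved less uniformly. Of 14 plakins and desmosomal plaque genes tested, which anchor keratin filaments, 6 were higher and 0 lower, against 45.2% and 18.3% of all genes, with a median log2 change of 0.15, the same as over all genes. Among these, Dsg3 was at 0.60, the linker Macf1 at 0.36, plectin (Plec) at 0.24 and Pkp3 at 0.21. Of 9 tested genes listed as bundling or embedding the filaments 2 were higher and 5 lower. Among them Flg2 was at −1.55, Hrnr at −1.20, Lor at −1.17 and Tchh at −0.91. Flg2, Hrnr and Lor are also in the suprabasal epidermis list and Tchh in the inner root sheath list. These counts thus repeat part of the marker counts. Of 21 transcription factors known to act on keratin genes 11 were higher and 1, Foxq1 at −0.25, lower, with a median of 0.19; the share that was higher is near the 45.2% over all genes. Hoxc13, which drives hair keratin genes and was named after its value was seen, was at 0.96 while 8 hair shaft keratins were lower, and Lhx2 (1.06), Gli2 (0.87), Sox9 (0.83) and Dlx3 (0.75) were higher as well. Lhx2 and Sox9 are also in the bulge stem cell list and Gata3 in the inner root sheath list. The counts of transcription factors thus also repeat part of the marker counts. Of 8 other intermediate filament genes tested, Lmna was higher at 0.20, and Sync and Bfsp1 lower at −0.33 and −0.23.

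The other question is whether keratin expression in basal epidermis at 1 year depends on Bmal1. No keratin passed the test: of 34 that passed the filter on dim genes, 0 were called higher and 0 lower in limma, against 0.0788% and 0.115% of the 13956 genes tested, and 27 genes were called in all. At an unadjusted p under 0.05 there were 2 keratins, Krt79 and Krt23, against 7.96% of all genes tested. The widest differences were lower means on Bmal1 KO arrays for Krt79, Krt23 and Krt78. The median change of the 34 keratins was −0.03, against −0.01 over all genes. Against all genes of like brightness in the IFE set, 6 of 52 keratins lay below the 5th percentile and 1 above the 95th. Those 6 were Krt79, Krt84, Krt78, Krt23, Krt17 and Krt2.

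Krt79, the infundibulum keratin, had values of 10.16, 9.70 and 9.5 on Bmal1 KO arrays, against 10.14, 10.98 and 11.34 on WT arrays. WT array 1 lay among the Bmal1 KO arrays, and the log2 change of −1.03 ± 0.30 did not pass (adjusted p = 0.335). Krt23 had 6.63, 6.64 and 6.65 on Bmal1 KO arrays, against 6.76, 7.70 and 8.45 on WT arrays. Its groups did not overlap, but WT array 1 was again close to the Bmal1 KO arrays, and the change of −0.99 ± 0.36 did not pass (adjusted p = 0.471). Without WT array 1 both were called lower, Krt79 at −1.37 ± 0.20 (adjusted p = 0.0288) and Krt23 at −1.43 ± 0.20 (adjusted p = 0.0223). Over all settings tried, adjusted p ranged from 0.0274 to 0.923 for Krt79 and from 0.0223 to 1 for Krt23.

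WT arrays 2 and 3 stood apart from WT array 1 in other lists too. Langerhans and other myeloid markers summed to 1293, 1375 and 1133 on Bmal1 KO arrays, against 1373, 3563 and 5286 on WT arrays. Suprabasal epidermis markers summed to 17348, 17361 and 15953 on Bmal1 KO arrays, against 15452, 21154 and 22817 on WT arrays. Markers of the upper hair follicle and sebaceous gland, the site of Krt79, summed to 9323, 8229 and 7996 on Bmal1 KO arrays, against 6733, 9335 and 11090 on WT arrays. In these 3 lists WT arrays 2 and 3 were the highest, as for Krt79 and Krt23. In the upper hair follicle list, though, WT array 2 was barely above Bmal1 KO array 1, and WT array 1 was the lowest of all. T cell markers summed to 6251, 5525 and 5635 on Bmal1 KO arrays, against 3428, 5989 and 6316 on WT arrays, so Bmal1 KO array 1 was above WT array 2. Of the 5 T cell markers tested, 1 was called, Thy1, higher in the KO at 1.19. On the log2 scale, where each of the 9 markers counts alike, their mean deviation from their own means was −0.50, −0.47 and −0.51 on Bmal1 KO arrays, against −0.23, 0.74 and 0.98 on WT arrays. What part these cells have in both keratins was not tested.

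**Figure D5:**
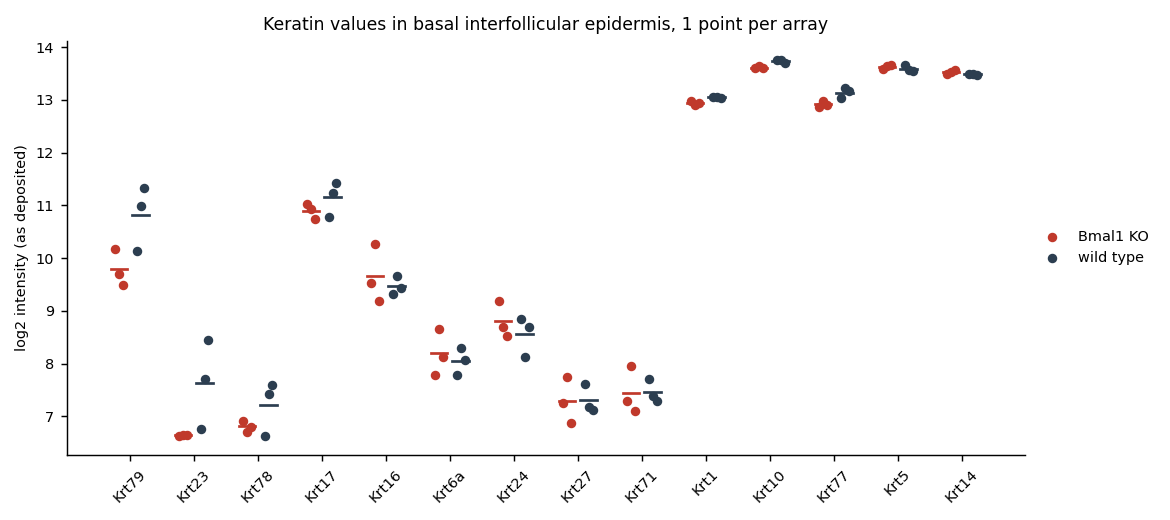
Log2 intensity of 14 keratins on each IFE array (points, with group means as lines), Bmal1 KO left of wild type for each gene. WT array 1 lies with or near the Bmal1 KO arrays for Krt79 (10.14) and Krt23 (6.76), and the values of Krt1, Krt10 and Krt77 lie slightly lower on all Bmal1 KO arrays.

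The keratins of the layers had narrow intervals. Krt5 had values of 13.58, 13.64 and 13.66 on Bmal1 KO arrays, against 13.66, 13.56 and 13.55 on WT arrays (interval of the log2 change −0.18 to 0.25). Krt14 had 13.49, 13.54 and 13.56 on Bmal1 KO arrays, against 13.50, 13.50 and 13.47 on WT arrays (interval −0.17 to 0.25). Krt15, which basal epidermis also makes, had 13.55, 13.52 and 13.48 on Bmal1 KO arrays, against 13.49, 13.59 and 13.59 on WT arrays (interval −0.25 to 0.18). These 3 overlapped between genotypes. Their values and those of Krt10 lie near the highest of any probe set on an IFE array, 14.04 to 14.17. Whether they are compressed there, which would also narrow the intervals, was not tested. Krt10 had 13.60, 13.63 and 13.60 on Bmal1 KO arrays, against 13.76, 13.76 and 13.69 on WT arrays (interval −0.34 to 0.09). Krt77 had 12.87, 12.99 and 12.91 on Bmal1 KO arrays, against 13.03, 13.21 and 13.16 on WT arrays (interval −0.45 to 0.02). Krt1, with Krt10 the pair of the suprabasal layers, was at −0.11 ± 0.09. In all 3 suprabasal genes the Bmal1 KO values lay below every WT value, but none passed the test. With Krt23 they were the 4 of 52 keratins so placed, against 7.33% of all genes. Krt19 was below the filter, at 0.01.

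Stress keratins varied within the genotypes. Krt16 had values of 9.53, 10.26 and 9.19 on Bmal1 KO arrays, against 9.33, 9.65 and 9.43 on WT arrays, and Krt6a was likewise highest on Bmal1 KO array 2 (8.66). Krt17 had 11.02, 10.93 and 10.75 on Bmal1 KO arrays, against 10.79, 11.23 and 11.43 on WT arrays. None separated the genotypes. Among the root sheath keratins, Krt71 had 7.28, 7.95 and 7.10 on Bmal1 KO arrays, against 7.70, 7.39 and 7.29 on WT arrays, and Krt27 had 7.25, 7.74 and 6.87 on Bmal1 KO arrays, against 7.62, 7.17 and 7.13 on WT arrays. Bmal1 KO array 2 was highest for both, as it was for Krt16 and Krt6a. Their intervals were wide, −0.53 to 0.49 for Krt71 and −0.54 to 0.51 for Krt27, which leaves room for changes of those sizes in either direction.

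The remaining sites held no call either. Of the hair shaft keratins, Krt33b had 8.94, 8.98 and 9.03 on Bmal1 KO arrays, against 9.22, 9.07 and 8.99 on WT arrays, and Krt32 had 8.34, 8.19 and 7.60 on Bmal1 KO arrays, against 8.0, 8.19 and 8.34 on WT arrays. Krt24, which led the bulge comparison, had 9.19, 8.69 and 8.52 on Bmal1 KO arrays, against 8.85, 8.13 and 8.69 on WT arrays (0.24 ± 0.23), and whether its change differs between the comparisons was not tested. The groups of all of these overlapped. Krt78 had 6.92, 6.71 and 6.80 on Bmal1 KO arrays, against 6.63, 7.42 and 7.60 on WT arrays, with WT arrays 2 and 3 high as for Krt79. Krt80 had 12.28, 12.30 and 12.06 on Bmal1 KO arrays, against 12.13, 12.39 and 12.43 on WT arrays. Krt8 had 8.40, 8.69 and 8.68 on Bmal1 KO arrays, against 8.44, 8.48 and 8.56 on WT arrays, and Krt7 had 8.24, 8.43 and 8.30 on Bmal1 KO arrays, against 7.86, 8.37 and 8.26 on WT arrays. These simple epithelial keratins did not separate the genotypes. Krt12 and Krt75 were at −0.13 ± 0.13 and −0.12 ± 0.12. Krt20, a keratin of the gut lining singled out after its values were seen, was below the filter and was the 1 keratin with all Bmal1 KO values above the WT ones, as 4.33% of all genes were, at 0.33 ± 0.10 with every gene tested (adjusted p = 0.464).

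The lists of partners gave no call in the IFE. Tested were 14 plakins and plaque genes, 9 genes of the bundling list, 21 transcription factors and 10 other intermediate filament genes. Of these 0 were called in either direction, with medians of −0.11, −0.23, −0.04 and −0.11. Lor and Flg2 had log2 changes of −1.40 and −1.38, the lowest of the bundling list, without passing the test. Both are also in the suprabasal epidermis list and were named after their values were seen.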

How the data were processed

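The deposited values are log2 intensities per probe set; the authors made them with RMA, per the submitters' processing notes, whose version is not given in the sources used here. The RNA went through a whole transcriptome amplification kit before labelling, per the labels' protocols. The bulge and IFE columns are filled for 34760 and 28853 probe sets and appear to have been processed apart, so no test crosses the sets. Arrays have no read depth: their number limits the precision. Probe sets with 1 symbol were reduced to 1 per gene (19938 genes), preferring those measured on all 12 arrays, then the highest mean. In each set the dimmest 30% of genes, by the mean of its 6 arrays, were dropped, and 13956 were fitted with limma 3.58.1 (lmFit, eBayes without trend) in R 4.3.3, two-sided, with Benjamini-Hochberg adjustment over all genes and an adjusted p under 0.05. Scripts were tested on simulated data. Members, site groups and lists were chosen with earlier results of these data known. Values on every array are given for keratins called in the IFE, those called in the bulge with a fold of at least 1.5, and the 2 brightest of each site; further keratins called in the bulge were added after their values were seen. Up to 4 genes of each related list with the smallest p were named, and marker genes where a keratin result moves with them. Gene order and promoters are RefSeq's, assembly GRCm38.p6, in which all 52 keratins matched. Krt81, Krt83 and Krt85 were not analysed here. Alternatives were 3 other scalings, other filters, single probe sets, 1 fit of all 12 arrays, a replicate block, an intensity trend and the omission of each array.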

Additional observations from a re-analysis of the deposited data

How the results depend on the processing

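In the bulge, the count of keratins called lower (18) was 29 with no filter on dim genes and 11 when the dimmest 50% were left out, since other genes were then tested, and the 4 called higher stayed within 1.5 times under every alternative tried. Over all genes in the bulge, 6311 were higher, and 4113 with quantile normalization, 3531 with cyclic loess and 3494 with all 12 arrays in 1 fit; 2555 were lower, and 1355 with median centring, 1696 with quantile normalization, 5564 with no filter and 740 with the lowest 50% left out. In the IFE, keratins called lower (0) numbered 1 with all 12 arrays, Krt79, and 0 to 2 when each array was left out in turn, the 2 without WT array 1. Over all genes in the IFE, 11 were higher, and 7 with median centring, 23 with quantile normalization, 44 with cyclic loess, 5 with no filter, 18 with the lowest 50% left out, 150 with all 12 arrays, 21 with an intensity trend and 3 to 27 when each array was left out; 16 were lower, and 26, 41, 29, 257 and 36 with quantile normalization, cyclic loess, the lowest 50% left out, all 12 arrays and an intensity trend, and 3 to 76 when each array was left out, highest without WT array 1. Apart from the construction of the filters, the cause was not tested. Same-numbered arrays were not treated as pairs in the main fit. Their deviations from the group means correlated at 0.198, 0.206 and −0.052 in the bulge and −0.557, −0.032 and −0.561 in the IFE. With 3 arrays per group these values cannot tell whether the samples were paired. With the replicate block the bulge kept its 4 and 18 keratin calls, and over all genes of the IFE 0 were higher and 3 lower. No sign of a called keratin turned under any alternative. Of the changes of keratins named by the rule in the bulge, 333 stayed on their side of the threshold over the alternatives, 16 lost the call and 8 gained it; in the IFE 265 stayed, 0 lost it and 2, both of Krt79, gained it; Krt23, which the rule does not name in the IFE, gained it without WT array 1.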
